A study of Mus musculus with 6 samples.

Results

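In unstimulated mouse macrophages, 2 of the 6 RNA-seq libraries of the series were compared, the library labelled as treated with siRNA against Phf2 and the library labelled as treated with control siRNA. The series asks how methylation of histone H4 at lysine 20 and its removal bear on the expression of inflammatory genes. The cells in all 6 libraries were macrophages elicited with thioglycollate in the peritoneum of female C57BL/6 mice, grown in DMEM with serum and exposed to siRNA for 48 hours. The siRNA was a control (siCtl), against Smyd5 (siSmyd5) or against Phf2 (siPhf2), and each was followed by vehicle or by the lipopolysaccharide component Kdo2-lipid A (KLA, 100 ng per ml for 4 hours). The protocol text names KLA for every sample, vehicle included, so vehicle rests on the agent label alone. There was 1 library per group, and neither the age nor the number of mice, nor whether the libraries came from separate cultures, is given in the sources used here. Of 23282 gene symbols in the deposited table, Rn45s (precursor of ribosomal RNA) was set aside before scaling, and the 7994 with a mean of at least 10 reads over the 6 libraries were compared.

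PHF2 is a histone demethylase of the Jumonji family whose plant homeodomain finger binds methylated lysine 4 of histone H3, and SMYD5 is a methyltransferase linked to lysine 20 of histone H4. In resting macrophages many inflammatory genes are held low by corepressor complexes such as NCoR, and signals through the receptor TLR4, which KLA engages, relieve that repression. Later, secreted interferon drives a further layer of antiviral genes through IRF and STAT factors. RNA interference of a single gene leaves some of its messenger RNA, and the elicited peritoneal cells are a mixture with few cells other than macrophages.

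The 2 libraries were of unequal depth and composition. The siCtl-labelled vehicle library held 1350844 reads without Rn45s, and the siPhf2-labelled one held 192421. Rn45s took 66.7% of all reads in the siPhf2-labelled vehicle library and 71.6% in the siPhf2-labelled KLA library, against 0.621% to 1.20% in the other 4. The siRNA label, the depth, the Rn45s share and the reverse-transcription barcode moved together in these 2 libraries and cannot be told apart. All 8 macrophage markers were read in both, at a summed 5373 counts per 1000000 effective reads (CPM, where the effective library follows scaling by the trimmed mean of M values, TMM) in the siCtl-labelled and 7407 CPM in the siPhf2-labelled library. The mesothelial and stromal markers summed to 1361 and 772 CPM (0 and 2 of 10 at 0), endothelial markers to 69.7 and 54.7, neutrophil markers to 18.3 and 24.3, and B cell markers to 21.4 and 24.3. Markers of mast cells, eosinophils, T and NK cells, dendritic cells and red cells were all at 0 in the siPhf2-labelled library and summed to at most 19.6 CPM in the siCtl-labelled one. In bulk RNA, fewer cells of a type and less RNA per cell cannot be told apart.

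Phf2 itself was not lower in the library labelled siPhf2. This gene (NM_011078, mm9 chromosome 13, 48897119 to 48966254 as the deposited table gives it) had 113 reads in the siCtl-labelled vehicle library, 52 in the siSmyd5-labelled one and 29 in the siPhf2-labelled one. After scaling that is 69.1 CPM under the siCtl label and 176 CPM under the siPhf2 label. The ratio was 2.55, with a 95% counting interval from 1.64 to 3.87, which goes against the label. Under KLA the counts were 120 and 8, with a ratio of 1.08 (0.457 to 2.20). The deposited values of each library became whole reads only with the header total of the other library, so the 2 names may be exchanged. If they are, every ratio below is inverted and the Phf2 log2 ratio becomes -1.32. For this reason the text speaks of the siPhf2-labelled and siCtl-labelled libraries throughout. Smyd5 had 44 reads in the siCtl-labelled vehicle library, 9 in the siSmyd5-labelled one and 3 in the siPhf2-labelled one, where the ratio to siCtl was 0.678 (0.135 to 2.12).

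A gene was called higher or lower where its log2 ratio was at least 1 in size and its counting interval left out equality. The intervals are exact and cover counting error alone, since PCR copies were not marked by molecular identifiers and no replicate shows the spread between cultures. Every statement therefore compares 2 libraries and not 2 conditions. By this rule 867 genes were higher in the siPhf2-labelled library (10.8% of those compared) and 706 were lower (8.83%), with a median log2 ratio of -0.10 over all genes. The list counts below are to be read beside these shares. The split depended on the scaling. Scaling to all reads without Rn45s moved the median by -0.46 and gave 380 higher and 1707 lower. Scaling to reads on coding transcripts moved it by -0.31 (494 and 1299), and setting the median ratio of well-read genes to 1 moved it by -0.69 (246 and 2396). Keeping Rn45s in the total moved it by -1.88 and left 43 higher and 6620 lower, so values below are best read against that common shift. Requiring a mean of 50 reads (428 and 481), exchanging the names (706 and 867) or demanding a wider, stricter interval (541 and 185) also moved the split. Among genes with at least 200 reads in the siCtl-labelled library, the log2 ratios had an SD of 0.98 against a median counting error of 0.25. The siSmyd5-labelled vehicle library, set against the same control, gave an SD of 0.45, with 206 genes higher (2.58%) and 435 lower (5.44%).

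**Figure D1:**
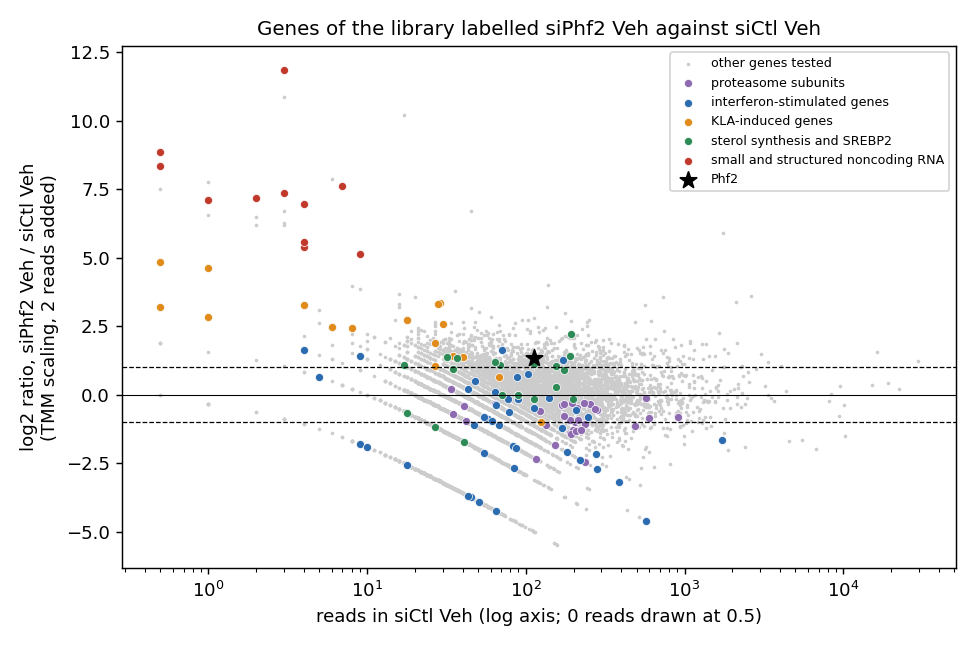
Each point is 1 of the 7994 genes, with reads in the siCtl-labelled vehicle library on a horizontal log axis. The vertical axis gives the log2 ratio of the siPhf2-labelled to the siCtl-labelled library under TMM scaling. Colours mark proteasome, interferon-stimulated, KLA-induced, sterol and small noncoding RNA genes, and a star marks Phf2. Calls are not marked. The noncoding RNAs at the top reach a log2 ratio of 11.86 (Vaultrc5). Vaultrc5 had 0 to 4 reads in the 4 other libraries, so the filter on reads fixed its direction.

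Small structured noncoding RNAs stood highest in the siPhf2-labelled library. Of the 38 members of the small and structured RNA list in the table, 30 had a higher level there, none a lower one and 8 had no read in either library, and 30 of 38 also had a higher level with Rn45s kept in the total. Their summed reads went from 64 to 3641, of which Vaultrc5 gave 2478. The filter on reads kept 11 of them, all called higher, but none of the 11 would have passed on the 4 other libraries alone, so that the filter fixed their direction. The RNAs include small nucleolar RNAs, which guide modification of ribosomal RNA: the C/D box class (Snord) for ribose methylation and the H/ACA class (Snora) for pseudouridylation. Mature forms of both lack a poly(A) tail, while the protocol took poly(A) RNA and then added its own tails. Noncoding transcripts made up 3.24% of the reads in the siCtl-labelled and 13.8% in the siPhf2-labelled vehicle library, Rn45s left out. The Rn45s share moved with them, and its part in the result was not tested.

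The sequences of 4 C/D box RNAs, which were among the genes called higher, are shown because their class holds most of the small RNAs with large ratios. They are printed 5′ to 3′ from GENCODE M21 (GRCm38), matched by RefSeq accession, and their lengths can differ from those in the deposited table. Capitals mark the C box (TGATGA, first match in the first 40 bases) and the D box (CTGA, last match in the last 30), searched on the transcript strand.
Snord17: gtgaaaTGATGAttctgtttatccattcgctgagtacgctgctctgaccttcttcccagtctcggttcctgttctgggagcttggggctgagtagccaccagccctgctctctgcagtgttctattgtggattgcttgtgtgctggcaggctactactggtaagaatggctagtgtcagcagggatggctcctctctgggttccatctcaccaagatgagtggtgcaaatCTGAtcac
Snord49b: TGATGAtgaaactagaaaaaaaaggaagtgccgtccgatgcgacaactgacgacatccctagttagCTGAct
Snord104: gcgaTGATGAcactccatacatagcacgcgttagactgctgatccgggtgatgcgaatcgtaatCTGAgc
Snord15b: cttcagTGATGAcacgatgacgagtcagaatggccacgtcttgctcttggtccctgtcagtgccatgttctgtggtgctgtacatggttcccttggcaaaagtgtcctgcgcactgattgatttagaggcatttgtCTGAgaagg
Of the 10 Snord transcripts called higher, 7 held both boxes in these windows, against 71 of 98 (72.4%) among all Snord transcripts of that annotation. For H/ACA RNAs the capitals mark the last ACA within the last 8 bases, which 3 of the 4 called Snora transcripts held, against 40 of 42 (95.2%) in the annotation.
Snora69: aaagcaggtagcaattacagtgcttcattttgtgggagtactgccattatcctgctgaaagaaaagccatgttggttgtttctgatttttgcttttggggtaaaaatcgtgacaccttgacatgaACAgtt
Snora70: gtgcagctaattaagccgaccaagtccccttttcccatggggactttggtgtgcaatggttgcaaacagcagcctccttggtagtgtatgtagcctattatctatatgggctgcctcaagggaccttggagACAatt
Rnu11, the U11 RNA of the minor spliceosome, and Rmrp, the RNA of the RNase MRP ribonucleoprotein that acts in ribosomal RNA processing, belong to neither class and carry no capitals.
Rnu11: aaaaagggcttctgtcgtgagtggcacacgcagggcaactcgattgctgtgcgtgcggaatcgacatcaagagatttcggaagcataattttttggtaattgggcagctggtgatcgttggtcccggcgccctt
Rmrp: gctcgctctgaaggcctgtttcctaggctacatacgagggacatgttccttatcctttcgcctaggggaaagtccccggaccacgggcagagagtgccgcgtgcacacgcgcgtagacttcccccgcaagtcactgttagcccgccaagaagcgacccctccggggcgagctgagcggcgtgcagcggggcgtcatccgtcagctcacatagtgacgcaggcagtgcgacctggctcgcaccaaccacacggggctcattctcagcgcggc

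Snord17 (mm9 chromosome 2, 144091718 to 144091938) had 0 reads under the siCtl label and 170 under the siPhf2 label, at least 563-fold higher against a floor of 3 reads. Rnu11 had 0 and 119 reads, at least 394-fold higher. Snord49b had 3 and 108 reads, a ratio of 358 (119 to 1760). All 3 thus passed from at most 3 reads to over 100 in a library with fewer reads. Snora81 had 1 and 102 reads, a ratio of 1014 (178 to 40440), and Snord2, on the same chromosome 16 gene, had 3 and 70, a ratio of 232 (76.2 to 1152). Rmrp had 7 and 209 reads (297, from 142 to 747), and Rpph1, the RNA of RNase P, which trims transfer RNA precursors, had 4 and 95 (236, from 89.2 to 884).

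Whole classes are best seen without the filter, which kept 10 Snord and 4 Snora genes, 1 and 0 of which would have passed on the 4 other libraries. Of all 69 listed Snord symbols, 59 had a higher level, 1 a lower one and 9 no read in either library, and their summed reads went from 101 to 1263, a ratio of 124 (102 to 154), and the number of symbols with any read went from 33 to 59. Of the 36 Snora symbols 32 had a higher level and 4 no read, and their sum went from 44 to 502 reads (113, from 83.3 to 158), and the small Cajal body RNAs from 3 to 23. Vaultrc5, a vault RNA, had 3 and 2478 reads (8212, from 2807 to 39850). Mir5109, annotated as a microRNA hairpin, had 17 and 2470, and it was the only 1 of 6 measured microRNA hairpins to be called. B230208H11Rik, a noncoding RNA, had 3 and 1253 reads (4152, from 1418 to 20160). In the siSmyd5-labelled vehicle library these 3 had 3, 44 and 2 reads, close to the siCtl-labelled counts for Vaultrc5 and B230208H11Rik. Neither Vaultrc5 nor B230208H11Rik had more than 4 reads in any of the 4 other libraries, so the filter fixed their direction.

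Many small nucleolar RNAs are cut from introns of other transcripts, and the compared coding genes around some of them were looked at. Of the 17 called noncoding transcripts of at most 300 bases outside chromosome 18, 9 lay within the mm9 span of a compared coding gene on the same strand, 8 genes in all. Of the 8, none was called higher, 2 were called lower and 6 were not called, and the ratio was below 1 in 7. Over all compared genes 10.8% were called higher and 8.83% lower, and 8 genes are too few to stand apart from those shares. Eif4a2, a translation helicase whose span holds Snord2 and Snora81, had 207 and 16 reads (0.768, from 0.431 to 1.28). Snx5, a sorting nexin whose span holds Snord17, had 610 and 26 reads (0.424, from 0.275 to 0.627). Rps3, a ribosomal protein gene around Snord15b, had 582 and 46 (0.786, from 0.569 to 1.06).

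Long nuclear RNAs were higher too, by smaller ratios. Of 14 measured long noncoding RNAs, 7 were called higher and 1 lower, with a median log2 ratio of 1.43 that turned to -0.49 with Rn45s kept in the total. Malat1, an abundant RNA of nuclear speckles, had 1759 reads under the siCtl label, 2300 under siSmyd5 and 10572 under siPhf2, a ratio of 59.8 (56.8 to 62.9) to siCtl. Kcnq1ot1, a long antisense RNA of the Kcnq1 imprinted locus, had 45 and 508 reads (112, from 82.7 to 156), and it cannot be separated from Kcnq1 if strand was not used in counting. Neat1, the scaffold of paraspeckles, had 735 and 878 reads (11.9, from 10.8 to 13.1). Gas5, a host of small nucleolar RNAs, had 138 and 226 (16.3, from 13.1 to 20.3), whereas Snhg1, another such host, had 45 and 0, at least 1.51-fold lower. Xist, the RNA of the inactive X chromosome, had 1364 and 500 reads (3.64, from 3.28 to 4.04). Of 3019 noncoding symbols listed, 318 passed the filter and 70 of these were called higher (22.0%). Of the 297 that pass on the 4 other libraries alone 49 were higher (16.5%), beside 797 of 7676 coding genes (10.4%).

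**Figure D2:**
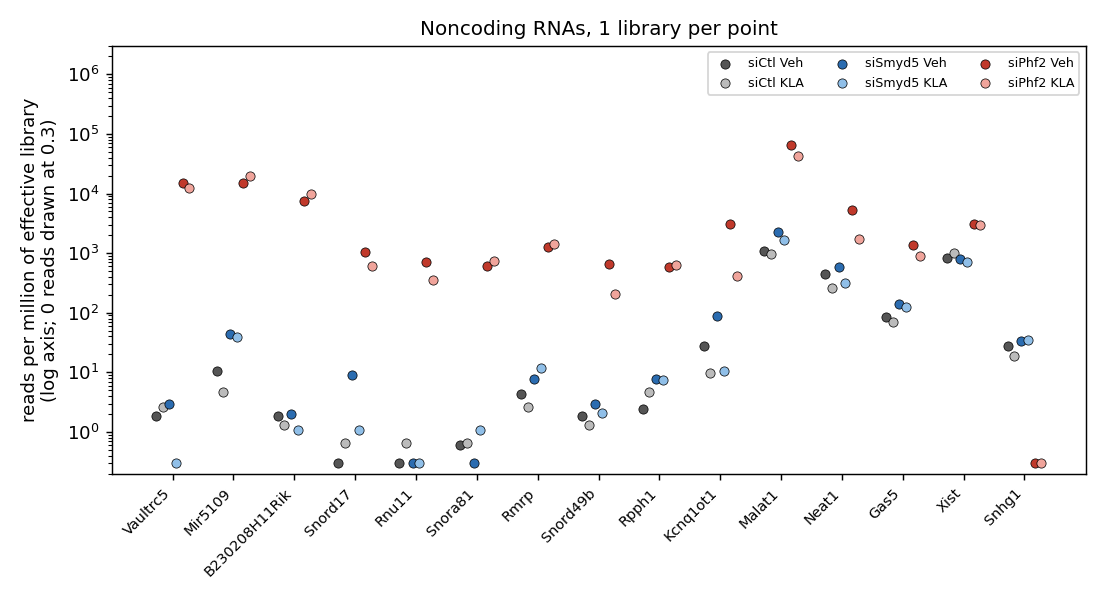
Reads per 1000000 effective reads on a log axis are drawn for noncoding RNAs in the 6 libraries, 1 point per library and none averaged. Both siPhf2-labelled libraries lie above the other 4 for most of these RNAs, as with Malat1 under vehicle at 10572 of 192421 reads against 1759 of 1350844. Snhg1 goes the other way, with 0 reads in both siPhf2-labelled libraries and 28 to 45 in the other 4.

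Among coding genes the ratio rose with transcript length. Coding genes were put in 10 bins of about equal number by length. In the shortest bin (288 to 1208 bases) the median log2 ratio was -0.60, with 1.82% called higher and 13.8% called lower. In the longest bin (6369 to 23397 bases) it was 0.78, with 37.9% and 1.17%. Coding genes called higher had a median transcript length of 5079 bases and those called lower of 2216. The KLA pair showed the same slope, from -0.92 to 0.28, and the siSmyd5-labelled vehicle library, which shares the siCtl control, sloped the other way, from 0.44 to -0.51. Transcript length thus moved with many of the gene groups below, and its part in them was not tested beyond a correction by the running median of genes of like length. With that correction 794 genes were higher and 547 lower.

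**Figure D3:**
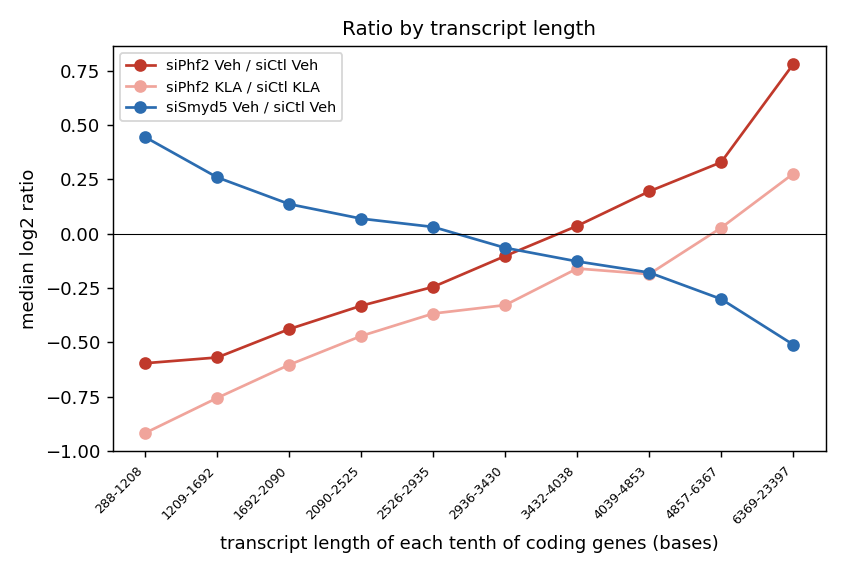
The median log2 ratio of coding genes is drawn for 10 bins of transcript length in bases, for the siPhf2-labelled against the siCtl-labelled library under vehicle and under KLA and for the siSmyd5-labelled against the siCtl-labelled vehicle library. The vehicle line climbs from -0.60 in the shortest bin to 0.78 in the longest; other scalings move the whole line.

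Very long messages were among the coding genes furthest up, beside short inflammatory ones described below. Lrp1, an endocytic receptor for lipoproteins and proteases, had 2622 reads under the siCtl label, 1009 under siSmyd5 and 3241 under siPhf2, a ratio of 12.3 (11.7 to 12.9). Ahnak, a giant scaffold protein, had 2110 and 2244 reads (10.6, from 9.96 to 11.2), and Macf1, which links microtubules to actin, had 560 and 552 (9.80, from 8.70 to 11.04). In these 3 genes the smaller library held about as many reads as the larger or more. Syne2, a nuclear envelope linker, had 36 and 55 reads (15.2, from 9.80 to 23.8). Plec, the cytoskeletal linker plectin, had 613 and 404 (6.55, from 5.76 to 7.44), and Notch2, a receptor of cell-cell signalling, had 243 and 141 (5.77, from 4.65 to 7.13). With the length correction their log2 ratios lay between 1.502 (Notch2) and 2.79 (Syne2). That correction takes the same amount from all of these genes, since the running median does not change among the longest transcripts. It therefore cannot show whether they stand above genes of like length.

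Other long genes with ratios near these were Tcf20, a transcriptional co-regulator, with 137 and 128 reads (9.29, from 7.24 to 11.9), Itpkb, an inositol phosphate kinase, with 51 and 44 (8.58, from 5.60 to 13.1), and Fry, a protein of cell polarity, with 45 and 44 (9.72, from 6.27 to 15.1).

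The actin and adhesion list held both extremes. Of its 33 measured genes 9 were called higher and 3 lower, with a median of 0.08 that turned negative under the other 4 scalings. The long Flna, an actin cross-linker, had 1889 and 546 reads (2.874, from 2.61 to 3.16), and Myh9, the heavy chain of non-muscle myosin, had 1285 and 467 (3.61, from 3.24 to 4.02). The short Tmsb10, a thymosin that binds free actin, had 433 and 2 reads, a ratio of 0.0459 (0.00554 to 0.167). Short genes were not all lower. Clec2d, a ligand of natural killer cell receptors with 1209 bases, had 9 and 18 reads, a ratio of 19.9 (8.48 to 50.2).

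Genes of chromatin regulation were mostly uncalled, apart from long methyltransferases. Over all compared genes 10.8% were called higher and 8.83% lower. Of 12 measured enzymes of H4 lysine 20 methylation and the PHF2 family, 2 were called higher and none lower, with a median of -0.12 that turned positive against the siSmyd5-labelled library (0.38). The called pair was Phf2 and Jhdm1d, a related demethylase, with 47 and 21 reads (4.44, from 2.52 to 7.58). Setd8, which places the first methyl group on that lysine, had 211 and 17 reads (0.801, from 0.458 to 1.31). Suv420h1, which adds further ones, had 108 and 8 (0.736, from 0.310 to 1.504). Phf8, a relative of PHF2, had 58 and 7 (1.20, from 0.462 to 2.63). These intervals span equality.

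Of 21 histone lysine methyltransferases 8 were called higher and none lower, with a median of 0.69 that turned slightly negative when the median ratio of well-read genes was set to 1 (-0.05) and with Rn45s kept (-1.38). Their median transcript is long, and after the length correction the median was 0.16. Mll2, a methyltransferase of lysine 4 of histone H3, had 485 and 310 reads (6.36, from 5.49 to 7.34), and its relative Mll1 had 243 and 157 (6.42, from 5.22 to 7.88). Nsd1, which acts on lysine 36 of histone H3, had 256 and 99 (3.85, from 3.02 to 4.87). Among 18 demethylases 2 were higher and 2 lower, with a median of 0.48 that fell below 0 under 3 of the other scalings. Kdm6b, a demethylase of lysine 27 of histone H3 that KLA induces, had 57 and 17 reads (2.96, from 1.62 to 5.17), while Jmjd6 had 105 and 3 (0.284, from 0.0576 to 0.853). Of 20 genes of the NCoR complex and its nuclear receptors, 4 were higher and 2 lower. Pparg, a fatty acid receptor, had 219 and 7 reads (0.318, from 0.126 to 0.666).

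Several genes that KLA induces strongly had higher vehicle levels in the siPhf2-labelled library. Of 29 genes that rose at least 32-fold with KLA in the siSmyd5-labelled libraries, 14 were called higher and none lower. Over all compared genes 10.8% were higher and 8.83% lower. The 29 had a median log2 ratio of 1.55 (0.10, with 5 higher and 2 lower, when Rn45s was kept). For levels against KLA, 18 of them were taken, by a rule chosen after the data were seen, that had at least 50 reads in the siPhf2-labelled KLA library. That minimum favours genes high under this label, and all 14 called genes are among the 18, so the 18 give no count of their own. At this depth a lower call needed at least 39 reads in the siCtl-labelled library, which 3 of the 29 genes had, so most of them could not have been called lower. A higher call needed only 2 reads in the siPhf2-labelled library where the siCtl-labelled one had 0. Several of the 14 calls rest on few siCtl-labelled and siPhf2-labelled reads, as in Nos2 (0 and 3), Cxcl10 (1 and 3), Gbp5 (4 and 7) and Mx2 (6 and 5).

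Il1b, the precursor of the fever cytokine IL-1 beta, had 0 reads under the siCtl label, 1 under siSmyd5 and 10 under siPhf2, at least 33.1-fold higher than siCtl. Tnf, which encodes tumour necrosis factor, had 28, 13 and 31 reads, a ratio of 11.01 (6.39 to 19.04). Irg1, the enzyme that makes itaconate, had 29, 16 and 33 reads, a ratio of 11.3 (6.66 to 19.3). The siPhf2-labelled library thus held the most reads of all 3 vehicle libraries for each of these genes despite its depth. Cxcl2, a neutrophil chemokine, had 1 and 11 reads (109, from 15.9 to 4707), and Nlrp3, the inflammasome sensor, had 30 and 20 (6.63, from 3.57 to 12.1). Nos2 (0 and 3 reads) and Cxcl10 (1 and 3) are too low for a ratio to be given. Ptgs2, the inducible cyclooxygenase, had 124 and 6 reads (0.481, from 0.173 to 1.08) and was not called.

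The vehicle level of these 18 genes stayed a small share of the KLA level in every arm. In the siPhf2-labelled arm it was 1.30% to 6.18% of the KLA level (median 2.54%). In the siCtl-labelled arm it was 0% to 5.94% (median 1.97%), and in the siSmyd5-labelled arm 0% to 2.53% (median 0.941%). The 18 genes were kept by their reads in the siPhf2-labelled KLA library, which is the denominator of that arm. That choice can lower the shares of the siPhf2-labelled arm, so the medians do not compare the arms.

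**Figure D4:**
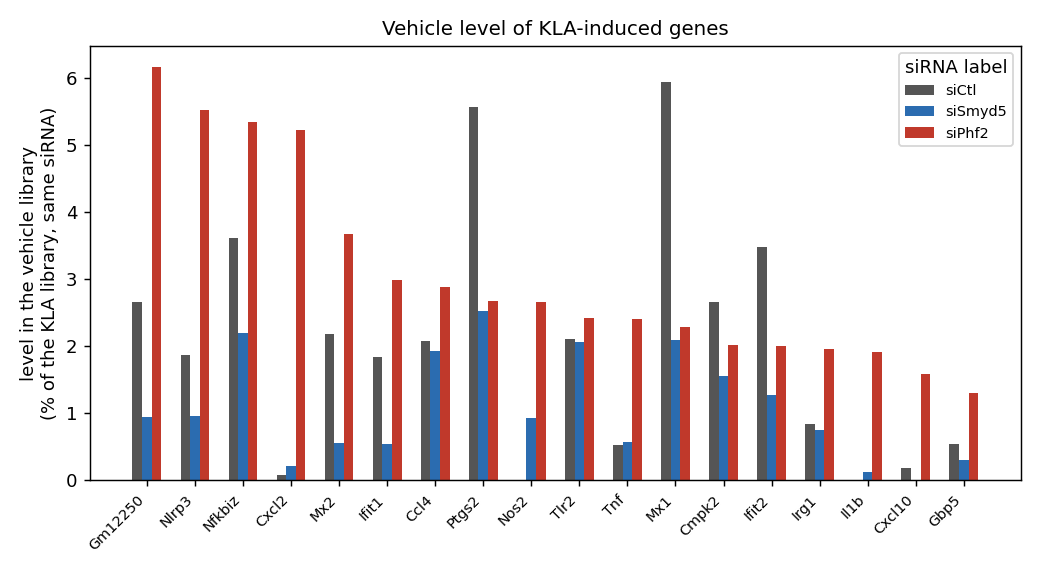
For the 18 strongly KLA-induced genes, the vehicle level is drawn as a percentage of the KLA level in the same arm, 1 bar per gene and arm. The siPhf2-labelled bars lie between 1.30% and 6.18% and the siCtl-labelled bars between 0% and 5.94%, so the ranges overlap. The 18 genes were chosen by their reads in the siPhf2-labelled KLA library.

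Signalling genes upstream gave a mixed picture. Of 30 genes of the NF-kB pathway and its feedback, 6 were called higher and 2 lower, with a median of 0.64 that turned negative when the median ratio of well-read genes was set to 1 (-0.06) and with Rn45s kept (-1.28). Ikbke, a kinase that activates interferon regulatory factors, had 66 and 28 reads (4.22, from 2.61 to 6.66). Tnfaip2, a target of tumour necrosis factor, had 514 and 161 (3.11, from 2.59 to 3.72). Nfkbia, the inhibitor that holds NF-kB in the cytoplasm, had 82 and 17 (2.06, from 1.15 to 3.50), and the apoptosis inhibitor Birc2 had 39 and 0, at least 1.31-fold lower. Among 24 toll-like receptors and their signalling genes 1 was higher and 1 lower.

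Of 29 measured cytokines and chemokines 4 were called higher and 7 lower, with a median of 0.00 that was negative under the 4 other scalings and 0.63 after the length correction. Ccl5, a chemokine for T cells and monocytes, had 240 reads under the siCtl label, 240 under siSmyd5 and 1 under siPhf2, a ratio of 0.0414 (0.00104 to 0.233). Mif, a constitutive cytokine, had 85 and 0 reads, at least 2.85-fold lower. Il1rn, the antagonist of the IL-1 receptor, had 465 and 21 (0.449, from 0.275 to 0.695). The higher Il1b and Cxcl2 were near 0 in the siCtl-labelled library, whereas the lower Ccl5 and Il1rn were well read there.

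Interferon-stimulated genes were lower as a group under vehicle, and split by how strongly KLA induces them. Of 48 measured members 8 were called higher and 15 lower, with a median of -0.80 that was negative under every scaling. After the length correction 7 were higher and 9 lower (median -0.65). Under KLA 32 of the same 48 were higher and none lower in the siPhf2-labelled library (median 1.46), beside 7.83% higher and 7.27% lower over all genes. The list was divided, after its values were seen, at an 8-fold rise with KLA in the siSmyd5-labelled arm. The 29 genes under that bound held 15 called lower and none higher, with a median of -1.66 that was below 0 under every scaling. After the length correction these 29 genes held 9 called lower and none higher (median -1.30). Their summed reads went from 5608 to 188, a ratio of 0.333 (0.287 to 0.386). The 19 genes above it held 8 called higher and none lower, with a median of 1.27 that turned to -0.60 with Rn45s kept. After the length correction these 19 genes held 7 called higher and none lower (median 0.98). Their summed reads went from 810 to 172, a ratio of 2.11 (1.78 to 2.49). Of these 19 genes 10 had fewer than the 39 control reads that a lower call needed, against 1 of the 29, so the division also sorts genes by whether they could be called lower.

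Irf7, the factor that amplifies interferon production, had 576 reads under the siCtl label, 312 under siSmyd5 and 2 under siPhf2, a ratio of 0.0345 (0.00417 to 0.125). Oas3, a sensor of double-stranded RNA, had 387, 123 and 4 reads, a ratio of 0.103 (0.0279 to 0.265). Bst2, the membrane tether of budding virions, had 220, 148 and 4 reads, a ratio of 0.181 (0.0488 to 0.469). The siPhf2-labelled library was far below both other vehicle libraries in all 3. Lgals3bp, a secreted glycoprotein, had 1734 and 55 reads (0.315, from 0.237 to 0.412). Xaf1, a pro-apoptotic interferon target, had 65 and 0, at least 2.18-fold lower. On the other side, Gbp5, a guanylate-binding protein, had 4 and 7 reads (17.4, from 4.42 to 81.0), and Cmpk2, a mitochondrial nucleotide kinase, had 18 and 14 (7.73, from 3.56 to 16.5). Rsad2, which encodes viperin, had 71 and 23 (3.22, from 1.92 to 5.22), and Ifit1, which binds foreign RNA caps, had 27 and 11 (4.05, from 1.81 to 8.44).

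**Figure D5:**
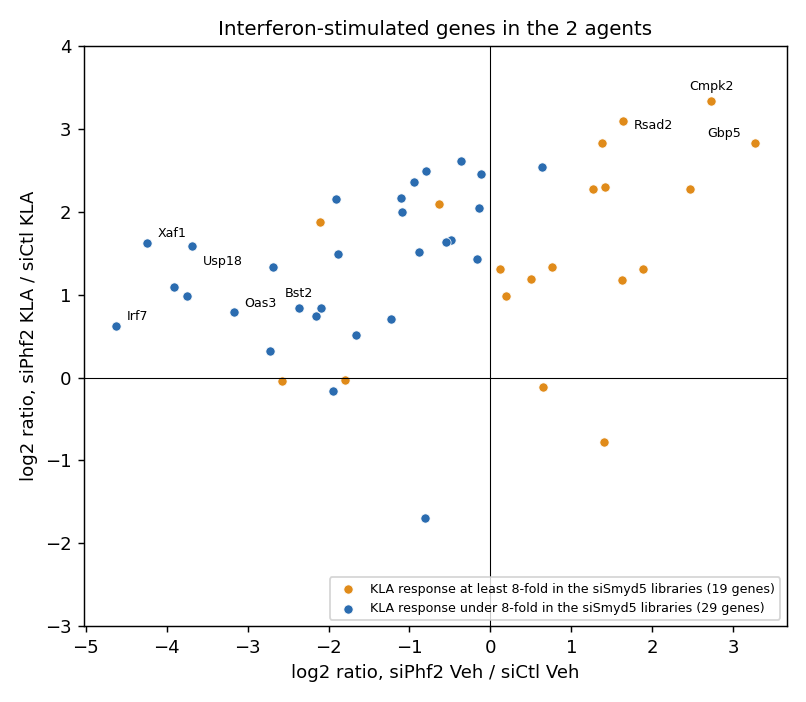
Each point is an interferon-stimulated gene, placed by its log2 ratio of the siPhf2-labelled to the siCtl-labelled library. Vehicle is on the horizontal axis and KLA on the vertical axis. Colours mark a rise with KLA under 8-fold or of at least 8-fold in the siSmyd5-labelled arm. Under vehicle the 29 genes under 8-fold have a median of -1.66 and the 19 others of 1.27 (-0.60 with Rn45s kept), while under KLA the whole list has a median of 1.46.

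Among genes of antigen presentation and complement, more were called lower than higher, beside 10.8% higher and 8.83% lower over all genes. Of 16 genes of MHC class I presentation 5 were lower and 1 higher, with a median of -0.81 that kept its sign under every scaling. After the length correction 3 were lower and 2 higher (median -0.31). In the KLA pair 2 were lower and 6 higher. H2-K1, a class I heavy chain, had 1871 and 46 reads (0.244, from 0.178 to 0.327), and B2m, its light chain, had 4539 and 143 (0.313, from 0.263 to 0.370). Reads of H2-K1 can be shared with near-identical class I genes. Nlrc5, the activator of class I transcription, was the 1 member higher without that correction, with 66 and 34 reads (5.12, from 3.28 to 7.86). Of 10 class II genes 2 were lower (1 after the length correction), H2-Aa among them with 162 and 3 reads (0.184, from 0.0376 to 0.548). Of 18 complement and Fc receptor genes 4 were lower and 1 higher, with a median of -0.33 that became 0.10 after the length correction. Cfb, complement factor B, had 514 reads under siCtl, 393 under siSmyd5 and 2 under siPhf2, a ratio of 0.0387 (0.00467 to 0.141). Serping1, the C1 inhibitor, had 154 and 0, at least 5.16-fold lower.

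Some sterol genes were higher. Of 19 genes of sterol synthesis and its regulator SREBP2, 8 were called higher and none lower, with a median of 0.92 that turned only with Rn45s kept (-1.004) among the scalings, and was 0.85 after the length correction. Scaled to all reads without Rn45s 1 was called higher, and on coding reads 2. Against the siSmyd5-labelled vehicle library the same list had 4 higher and 4 lower and a median of 0.03, and the siSmyd5-labelled library itself had 4 higher than the shared control. Srebf2, which encodes SREBP2, had 190 reads under siCtl, 147 under siSmyd5 and 52 under siPhf2 (2.72, from 1.96 to 3.71). Insig1, which retains the SREBP complex in the endoplasmic reticulum, had 69 and 15 (2.16, from 1.15 to 3.82). Sqle, squalene epoxidase, had 198 and 18 (0.904, from 0.525 to 1.47) and was not called.

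Of 29 genes of lipid handling 5 were higher and 3 lower, with a median of 0.38 that was below 0 under 3 of the other scalings. Apoe, the apolipoprotein that loads cholesterol efflux particles, had 2128 and 788 reads (3.68, from 3.39 to 4.00), and Fasn, fatty acid synthase, had 200 and 92 (4.57, from 3.53 to 5.88). Cd36, a scavenger receptor, had 5529 and 175 (0.315, from 0.269 to 0.366), and Fabp5, a fatty acid carrier, had 1365 and 59 (0.430, from 0.325 to 0.558). Abhd5, a co-activator of triglyceride lipase, had 158 and 2 (0.126, from 0.0151 to 0.462).

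Macrophage identity genes did not move in 1 direction. Of 34 measured 8 were higher and 4 lower, with a median of -0.03 that was 0.36 after the length correction. Csf1r, the receptor on which macrophage survival depends, had 546 and 158 reads (2.88, from 2.40 to 3.44). Itgax, an integrin chain, had 307 and 105 (3.40, from 2.70 to 4.26), and Mertk, a receptor for dead cells, had 183 and 52 (2.83, from 2.04 to 3.86). Gpnmb, a glycoprotein of loaded lysosomes and the most read gene of the siCtl-labelled library, had 29390 and 6999 (2.37, from 2.31 to 2.43). Lower were Cebpa, a myeloid transcription factor, with 304 and 6 reads (0.196, from 0.0714 to 0.432), and the receptors Cd36, Fcgr1 and Msr1. Lyz2 (2566 and 357 reads, 1.38), Cd68 (3202 and 400, 1.24) and Lgals3 (8375 and 858, 1.02) were near equality.

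Some genes for protein turnover and translation were lower. Of 36 proteasome subunits 14 were called lower and none higher, with a median of -0.84 that was negative under every scaling and -0.32 after the length correction, where 3 were lower, beside 547 of 7994 over all genes. Psmc6, an ATPase of the regulatory particle, had 235 reads under siCtl, 225 under siSmyd5 and 4 under siPhf2, a ratio of 0.169 (0.0457 to 0.439). Of 33 translation factors 8 were lower and none higher, with a median of -0.59 that was negative under every scaling and -0.30 after the length correction. Eif3e, a subunit of initiation factor 3, had 157 and 0 reads, at least 5.26-fold lower, and was also at 0 in the siPhf2-labelled KLA library against 184 under siCtl. Eif3m, another subunit, had 99 and 0, at least 3.32-fold lower. Cops5, the catalytic subunit of the COP9 signalosome, had 175 and 1 (0.0568, from 0.00143 to 0.321), and its partner Cops4 had 114 and 0, at least 3.82-fold lower. Uba3, which activates the ubiquitin-like protein NEDD8, had 91 and 0, at least 3.05-fold lower.

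Other genes far down the order were of mixed function. Ms4a6c, a membrane protein of myeloid cells, had 113 reads under siCtl, 55 under siSmyd5 and 0 under siPhf2, at least 3.79-fold lower, and Cyr61, a secreted matrix protein, had 111, 36 and 0, at least 3.72-fold lower. Cdc34, a ubiquitin-conjugating enzyme, had 95, 70 and 0, at least 3.19-fold lower. All 3 had 36 or more reads in both other vehicle libraries and none here. Over all compared genes, 464 were at 0 in the siPhf2-labelled library and 10 in the siCtl-labelled one.

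Of 68 genes of oxidative phosphorylation 12 were lower and 2 higher, with a median of -0.51 that kept its sign under every scaling and was -0.04 after the length correction. Uqcrc2, a core subunit of complex III, had 238 and 4 reads (0.167, from 0.0452 to 0.433). Of 40 ribosomal protein genes 9 were lower and 3 higher, with a median of -0.38 that turned to 0.07 after the length correction and stayed negative under the scalings. Ribosomal protein genes have many near-identical copies, so their reads are uncertain. Among the most read genes, Fth1, the ferritin heavy chain, had 22589 and 2619 reads (1.15, from 1.11 to 1.20), while Ftl1, the light chain, had 10212 and 362 (0.352, from 0.317 to 0.391), so the chains of ferritin differed.

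The KLA pair, which shares no library with the vehicle pair, shared part of the calls. There 626 genes were higher and 581 lower (median -0.34). In both pairs 277 genes were higher, 31.95% of those under vehicle and 44.25% of those under KLA, and 198 were lower, 28.05% and 34.08%. Over all compared genes 7.83% were higher and 7.27% lower under KLA, and 10.8% were higher and 8.83% lower under vehicle. Both pairs have the siPhf2 label, the high Rn45s share and the lower depth in common, and the part of each was not tested. Lrp1 had 2323 and 914 reads under KLA (6.39, from 5.92 to 6.91), and Malat1 had 1483 and 3968 (43.5, from 41.0 to 46.2). Hsp90aa1, a stress-inducible chaperone, had 211 and 1 reads under vehicle (0.0471, from 0.00119 to 0.265) and 272 and 2 under KLA (0.119, from 0.0144 to 0.436). Of the genes called, 8 were higher under vehicle and lower under KLA, and 14 were the reverse.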

How the data were processed

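Poly(A) RNA of 6 macrophage libraries was fragmented, tailed, reverse-transcribed with barcoded primers, amplified for 15 cycles and sequenced on a Genome Analyzer 2, per the labels' protocols. The deposited table gives a normalized signal per RefSeq transcript, scaled by the authors to 10000000 tags per the file headers. The submitters' processing notes name HOMER and mm9, and strand use is not given in the sources used here. Whole reads were recovered for 100% of values (tolerance 0.02), with each siCtl and siPhf2 library fitting the other's header total of the same agent (with its own, 2.43% and 1.13% under vehicle).

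Each symbol was represented by its most read transcript, by the mean of 6 libraries, Rn45s was left out, and symbols with a mean of at least 10 reads were kept. TMM factors came from edgeR 4.0.16 (R 4.3.3), used for scaling only; ratios came from Python 3.11.15, SciPy 1.17.1 and pandas 2.3.3, and were checked on simulated data. Log2 ratios had 2 reads added on average in proportion to effective library size, since adding 2 to each library alike biases a shallow library upward; the equal addition is an alternative. Intervals were exact conditional Poisson (Clopper-Pearson, 95%). With 1 library per group no test was run and no p-values were computed. Length correction subtracted the running median of 401 genes. Named genes were the targets, the 15 coding genes furthest each way, the 5 noncoding ones, 10 called in both agents, the 10 most read and those called in opposite directions, plus examples from 33 gene lists; some genes are not reported here. Members and lists were chosen with earlier results of these data known.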

Additional observations from a re-analysis of the deposited data

Results flagged for a closer look

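The vehicle and KLA pairs gave opposite calls for 22 genes and for the interferon list, without a test of the difference between them. Lower under vehicle and higher under KLA, by log2 ratio of the siPhf2-labelled to the siCtl-labelled library, were many interferon targets: Xaf1 (-4.24 and 1.62), Ccl5 (-4.17 and 1.14), Ifi35 (-3.91 and 1.09), Usp18, a protease that removes ISG15 (-3.68 and 1.58), Eif2ak2, the kinase PKR (-2.69 and 1.33), Irf9, a partner of STAT factors (-1.88 and 1.49), and Samhd1, which degrades nucleotides (-1.27 and 1.23). The interferon list as a whole had medians of -0.80 and 1.46. Cdkn1a, the cell cycle inhibitor p21, had -2.48 and 1.97, and Ier3, an early response gene, had -4.01 and 1.20. The same pattern held for Hjurp (-4.13 and 1.36), A730008H23Rik (-4.08 and 1.49), Gm885 (-2.52 and 1.27), Plekhf2 (-1.52 and 1.46) and Urgcp (-1.13 and 1.30). Several of these had 0 or 1 reads in the siPhf2-labelled vehicle library, so their log2 ratio depends on the reads added.

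Higher under vehicle and lower under KLA were Fabp4, a fatty acid carrier (1.07 and -2.41), Inpp5d, the lipid phosphatase SHIP1 (1.28 and -2.76), Atrx, a chromatin remodeller (1.03 and -2.73), Enc1 (1.11 and -4.57), Tanc2 (1.01 and -2.53), Mtss1 (1.04 and -1.81), Raph1 (1.09 and -1.17) and Dmxl2 (1.23 and -1.25). After the length correction the vehicle value fell to 0.0 in Tanc2, 0.02 in Atrx, 0.11 in Raph1 and 0.23 in Dmxl2. The corrected value was 0.83 in Mtss1, 0.85 in Enc1, 1.03 in Inpp5d and 1.49 in Fabp4. The KLA values are given without that correction. They rest on 0 (Enc1) to 7 (Raph1) reads in the siPhf2-labelled KLA library, so they depend in part on the reads added. For Enc1 under KLA the bound was at least 1.76-fold lower. Rn45s lay outside the comparison and took 66.7% of the siPhf2-labelled vehicle reads and 71.6% of the siPhf2-labelled KLA reads, above the 0.621% and 0.724% of the siCtl-labelled libraries.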

How the results depend on the processing

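No paired analysis was possible because each group held 1 library. Counts of genes higher and lower were 867 and 706, and moved to 380 and 1707 on all reads without Rn45s, 494 and 1299 on coding reads, 246 and 2396 with the median ratio set to 1, 43 and 6620 with Rn45s kept, and 541 and 185 with the stricter interval. With a mean of at least 50 reads 428 were higher. Calls shared by both agents (277 and 198) moved to 114 and 675, 145 and 492, 64 and 1445, and 29 and 5902 under the first 4 of these settings in that order, and the lower ones to 121 after the length correction; these alternatives for shared calls, the equal addition of 2 reads (971 and 566) and the KLA-induced sets were chosen after seeing the data. The log2 ratio of Phf2 (1.32) became 0.59 with the median ratio set to 1, -0.70 with Rn45s kept and -1.32 with the names exchanged. With Rn45s kept, 36 of 158 genes changed sign: Xist (-0.21), Rsad2 (-0.37), Nsd1 (-0.13), Srebf2 (-0.62), Apoe (-0.20), Csf1r (-0.55), Mertk (-0.57), Itgax (-0.31), Siglec1 (-0.70), Gpnmb (-0.83), Psap (-0.52), Tnfaip2 (-0.44), Ikbke (-0.00093), Kdm6b (-0.48), Slc7a11 (-0.87), Fn1 (-1.03), Flna (-0.55), Myh9 (-0.22), Tln1 (-0.42), Mpeg1 (-1.02), Nfkbia (-0.98), Nfkb2 (-0.70), Parp14 (-0.77), Mx1 (-0.58), Ifit1 (-0.054), Ifit2 (-0.52), Ash1l (-0.61), Insig1 (-0.91), Tanc2 (-0.9996), Atrx (-1.02), Mtss1 (-1.01), Fabp4 (-0.98), Raph1 (-0.96), Enc1 (-0.86), Dmxl2 (-0.81), Inpp5d (-0.77). Against the siSmyd5-labelled library Fabp4 became -0.012. Depth limits the lower calls: a gene at 0 reads needed at least 39 reads in the siCtl-labelled library, which 6041 of 7994 genes had.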

Other observations

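Some chaperones and stress genes were lower in the siPhf2-labelled vehicle library, where 10.8% of all compared genes were higher and 8.83% lower. Of 15 heat shock genes and chaperones 3 were called lower and none higher, with a median log2 ratio of -0.81 that was negative under every scaling (2 lower and -0.60 after the length correction). These 15 genes are too few for the count to stand apart from the share over all genes. Cct4, a subunit of the chaperonin that folds actin and tubulin, had 404 and 11 reads under the siCtl and siPhf2 labels (0.271, from 0.134 to 0.489). Of 32 genes of the unfolded protein and amino acid response 7 were lower and 1 higher, with a median of -0.64 of the same sign under every scaling (4 lower and -0.30 after the length correction). Hspa5, the main chaperone of the endoplasmic reticulum, had 1468 and 67 reads (0.454, from 0.350 to 0.580), and Pdia4, a disulfide isomerase, had 255 and 4 (0.156, from 0.0422 to 0.404). The higher member was Slc7a11, the cystine transporter, with 54 and 12 (2.21, from 1.08 to 4.18).

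Matrix genes, many of them typical of stromal and mesothelial cells, were in part lower. Of 26 measured 6 were lower and 2 higher, beside 8.83% lower and 10.8% higher over all genes. The median was -0.49 and was negative under every scaling. Against the siSmyd5-labelled library 7 were higher and 6 lower (median -0.27), and 7 were lower in the siSmyd5-labelled library than in the shared control. Col3a1, a fibrillar collagen, had 530 and 8 reads (0.150, from 0.0644 to 0.298), and Dcn, the proteoglycan decorin, had 279 and 4 (0.142, from 0.0386 to 0.369). Of the 5 stromal markers compared, these 2 were called lower and none higher. Col1a1 (604 and 46 reads), Col1a2 (592 and 43) and Pdgfra (174 and 21) were not called. Fn1, fibronectin, which macrophages also express, had 2305 and 480 (2.07, from 1.87 to 2.29). The summed stromal markers fell from 1361 to 772 counts per 1000000 effective reads beside these genes, and their part in the result was not tested. Of 40 lysosomal genes 3 were higher and 3 lower (median 0.06, negative under the other 4 scalings); Psap, the precursor of saposins, had 16334 and 4840 reads (2.95, from 2.85 to 3.04).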
